A study of Mus musculus with 56 samples.

Results

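The genes described here are 37 interferon-inducible and antigen processing genes, measured by RNA sequencing in the prefrontal cortex of young mice. They were taken by symbol from a list, each symbol was matched to its row in the deposited table of 18088 genes, and all 37 had 1 row each. All 56 mice were of the C57BL/6J strain and were either wild type (WT) or heterozygous for Scn2a (HT), which encodes a voltage-gated sodium channel of neurons. The nature of the HT allele is not described in the sources used here. Fluoxetine, a serotonin reuptake inhibitor, lithium, a mood stabiliser, or vehicle reached the pups through their dam's milk from postnatal day 3 to postnatal day 24, and cortex was collected on postnatal day 25. Both sexes were used in every group. The libraries numbered 9 for WT vehicle, 10 for HT vehicle, 9 for WT fluoxetine, 9 for HT fluoxetine, 9 for WT lithium and 10 for HT lithium. Every mouse was nursed by a dosed or vehicle-treated dam, and neither dams nor litters are named. Pups of a group may therefore have shared a mother, in which case p-values for the drugs are too small, and they measure only the spread between these mice.

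Interferons are signalling proteins released by cells that sense viral or misplaced nucleic acid. Type I interferon activates kinases at its receptor, and the phosphorylated Stat2 joins Irf9 and a partner in the factor ISGF3, which binds the interferon-stimulated response element (ISRE) of antiviral genes. Interferon gamma acts through a different element (GAS) and raises the immunoproteasome, whose subunits replace the constitutive catalytic subunits of the proteasome. The peptides it cuts are carried by the transporter Tap1-Tap2 into the endoplasmic reticulum, where they are loaded on major histocompatibility complex (MHC) class I molecules. In the brain, microglia and endothelial cells are known to respond to interferon, and neurons are also known to make MHC class I molecules.

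The list covers 8 roles. The immunoproteasome subunits were Psmb8, Psmb9 and Psmb10, the peptide transporter was Tap1 and Tap2, and the MHC class I chains were the heavy chains H2-K1 and H2-D1 with their shared light chain B2m. Interferon signalling and its feedback held Stat2, Irf9, Irf7, a factor that amplifies interferon production, and Usp18, which removes Isg15 from proteins and restrains the receptor. The sensors of double-stranded or viral RNA were Ifih1, Ddx58, Dhx58 and the kinase Eif2ak2, grouped with the ubiquitin ligase Trim25 that activates Ddx58. The 13 antiviral effectors were the ubiquitin-like Isg15, the exonuclease Isg20, the RNA-binding Ifit1, Ifit2 and Ifit3, and Ifi27, Ifi35, Bst2, Oasl2, Rsad2, Rtp4, Xaf1 and Samd9l. Bst2 tethers budding virus to the cell surface, and Rsad2 makes a nucleotide that ends viral RNA chains. The ADP-ribosylation and ubiquitin ligase group held Parp9 with its partner Dtx3l, Parp14 and Rnf213. The last role held Tnfsf10, which encodes the death ligand TRAIL, the nuclear body protein Sp100 and the secreted Lgals3bp.

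The element sought by ISGF3 was searched for in the RefSeq promoter windows of the GRCm38.p6 assembly, which run from 250 bases before to 50 bases after a start site. A window was found for 30 of the 37 members, in 36 windows. The ISRE letters, GAAA followed after any 2 bases by GAAA again (TTTC and TTTC when read on the other strand), were in 10 of the 36 windows (27.8%), against 3.44% of 32851 windows of the same length over all genes. The GAS letters TTCNNNGAA, which read the same on both strands, were in 6 of the 36 windows (16.7%), against 8.30% of all windows. A match describes the letters and is not evidence of binding. The stretches below are shown because they belong to members with values given further on. They read 5′ to 3′ on the gene's strand, with matches in capitals (ISRE letters in all but Psmb8, GAS letters in Psmb8).
Isg15, chr4:156200855-156200916, minus strand: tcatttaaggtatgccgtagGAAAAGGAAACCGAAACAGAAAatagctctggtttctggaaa
Ifit3, chr19:34583353-34583436, plus strand: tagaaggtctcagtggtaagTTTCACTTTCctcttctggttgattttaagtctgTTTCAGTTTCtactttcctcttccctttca
Bst2, chr8:71537567-71537622, minus strand: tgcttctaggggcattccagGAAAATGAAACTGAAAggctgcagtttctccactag
B2m, chr2:122147528-122147577, plus strand: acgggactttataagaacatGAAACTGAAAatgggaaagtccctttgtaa
Stat2, chr10:128270256-128270305, plus strand: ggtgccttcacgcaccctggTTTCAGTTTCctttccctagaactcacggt
Psmb8, chr17:34198078-34198126, plus strand: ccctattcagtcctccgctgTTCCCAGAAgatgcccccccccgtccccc
The Isg15 stretch held 3 overlapping ISRE matches, those of Ifit3 and Bst2 held 2 each, and those of B2m and Stat2 held 1 each. The Bst2 stretch also held 1 GAS match, which overlaps its first ISRE match and is not marked as such. The windows of H2-K1, H2-D1, Rnf213, Irf9 and Tnfsf10 held neither set of letters.

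Library depth was 24.3 to 36.4 M reads (median 27.9 M). Scn2a itself lay between 7583 and 9619 normalised reads in the 29 HT libraries and between 9727 and 13381 in the 27 WT libraries, so the genotype labels and the Scn2a level did not conflict. All 6 cortical markers were in the table, and none was at 0 throughout. In 22 of the 56 libraries, markers of the olfactory bulb or of the striatum, regions next to the dissected one, had a mean log2 deviation above 1. These libraries were spread over all groups, with 3 in HT fluoxetine, 5 in HT lithium, 4 in HT vehicle, 3 in WT fluoxetine, 3 in WT lithium and 4 in WT vehicle. Every call of a member against vehicle ended when these 22 libraries were left out, so each such call is given below with its value in the other 34 libraries.

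All values below are normalised reads, that is reads divided by a size factor of the library, and changes are differences of log2(value + 1). Per kilobase of annotated exon, B2m was the most abundant member at 1848 normalised reads. H2-D1 followed at 356 per kilobase, Psmb10 at 331, Ifi27 at 215 and H2-K1 at 158. Stat2 stood at 125 per kilobase, Irf9 at 63.0 and Isg15 at 40.5. Psmb8 at 15.4, Tnfsf10 at 11.7 and Psmb9 at 6.15 per kilobase were among the low members. All 37 members passed the filter on low values (at least 10 in at least 4 libraries), and no library was at 0 for any of the 8 genes called below. The MHC class I heavy chains were thus far more abundant than the immunoproteasome subunits Psmb8 and Psmb9. B2m, which lies on chromosome 2, also had the smallest spread within groups, an SD of 0.054 on the log2 scale.

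A gene was called when its limma p-value, adjusted by the Benjamini-Hochberg method over the 17778 genes tested, was below 0.05. Over both genotypes, 4 of 37 members (10.8%) fell with fluoxetine and none rose, where 0.928% of all genes were called, 0.405% lower and 0.523% higher. Lithium lowered 4 of 37 (10.8%) and raised 1 (2.70%), where 16.2% of all genes were called, 6.85% lower and 9.31% higher. In WT mice alone, fluoxetine lowered 2 members (5.41%), where 0.146% of all genes were called (0.0450% lower, 0.101% higher). Lithium in WT lowered 4 members (10.8%), where 5.71% of all genes were called (1.88% lower, 3.84% higher). Lithium in HT raised 1 member (2.70%), where 8.77% of all genes were called (4.64% higher, 4.13% lower). Fluoxetine in HT called no member by limma, edgeR or DESeq2 (4 at an unadjusted p below 0.05, as 8.56% of all genes were), and 0.0450% of all genes by limma. Between the drugs, 2 members (5.41%) were higher with lithium than with fluoxetine and none lower, where 6.50% of all genes were called (3.84% higher, 2.67% lower). The members' shares in the lithium comparison over both genotypes, in HT and against fluoxetine were near or below those of all genes. These counts are therefore not a result about the members. In the other comparisons with calls the members' shares were above those of all genes. The 37 members were chosen with earlier results of these data known, so that excess is not a test of the list. The 2 drugs were compared with the same vehicle libraries, so their results are not independent of each other.

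In all, 8 members were called in at least 1 of 14 comparisons and 29 in none. Most members had a lower mean under either drug: 27 of 37 with fluoxetine (median change -0.08) and 28 of 37 with lithium (-0.07), against 49.2% and 49.8% of all genes and medians of 0.00. In the 34 libraries without raised regional markers the median change of the members was 0.00 with either drug. In WT mice 32 of 37 were lower with fluoxetine and 30 of 37 with lithium, against 48.7% and 49.3% of all genes. In HT mice these counts were 23 and 19 of 37, against 49.6% and 50.3% of all genes. The WT drug comparisons, the genotype comparison under vehicle and the genotype differences in drug effect all use the 9 WT vehicle libraries. Their results are therefore not independent of each other. Since this was bulk tissue, fewer cells of a type and less RNA per cell cannot be told apart in any of these values.

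**Figure D1:**
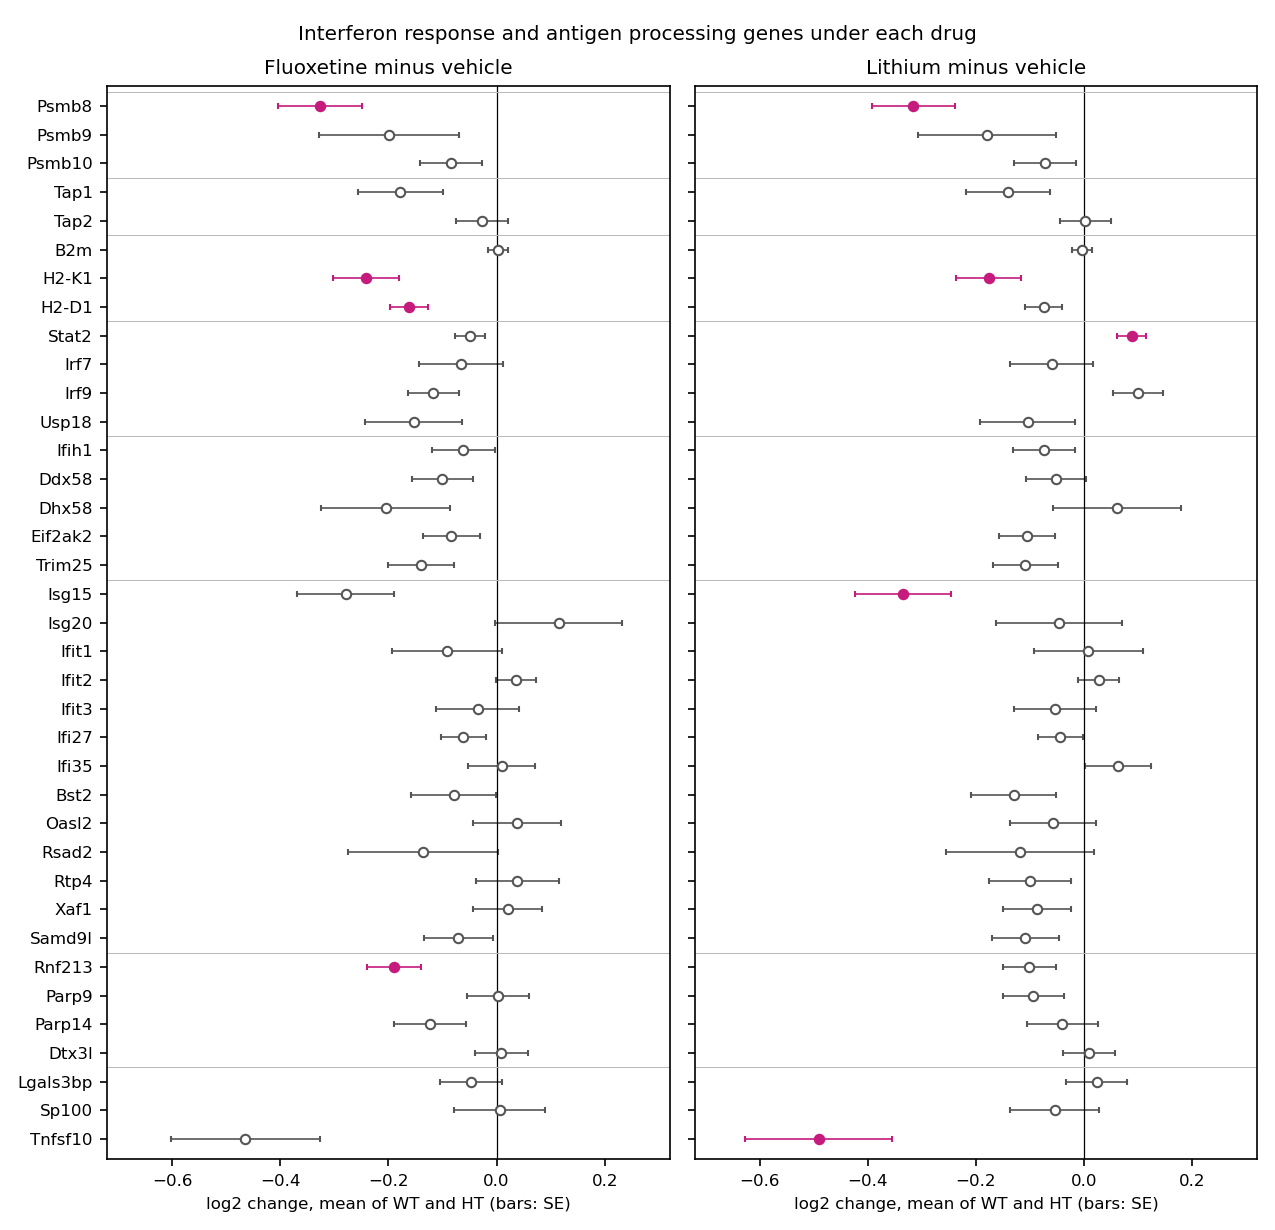
Log2 change of each of the 37 members with fluoxetine (left) and with lithium (right) against vehicle, as the mean of WT and HT, with bars of 1 SE. Grey lines separate the 8 roles and filled points mark members with an adjusted p below 0.05. Psmb8 and H2-K1 are filled to the left of 0 in both panels, while Stat2 is filled to the right of 0 with lithium.

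Psmb8, the immunoproteasome subunit also called LMP7, fell with both drugs. Its values ran from 45.9 to 73.9 (median 60.0) in the 19 vehicle libraries, from 30.1 to 59.7 (median 47.8) in the 18 fluoxetine libraries and from 29.6 to 68.6 (median 47.4) in the 19 lithium libraries. The groups overlapped, but 17 of 18 fluoxetine libraries and 18 of 19 lithium libraries lay below the vehicle mean of their genotype and sex. Counts of libraries lower or higher given below use the same reference unless stated otherwise. The change was -0.33 ± 0.078 (SE) with fluoxetine (limma, adjusted p = 0.030) and -0.32 ± 0.077 with lithium (adjusted p = 0.0030). Within genotypes, the fall with lithium in WT was the only one that passed the test (-0.44 ± 0.11, adjusted p = 0.014, 9 of 9 libraries lower). The lithium change was -0.19 ± 0.10 in HT (adjusted p = 0.26), and the difference between the genotypes was 0.24 ± 0.15 (adjusted p = 0.55). Leaving out any 1 of the 56 libraries kept the lithium calls of Psmb8 in WT and over both genotypes. Without the 22 libraries none of these calls held, at -0.26 ± 0.097 with fluoxetine (adjusted p = 0.34), -0.26 ± 0.098 with lithium (adjusted p = 0.13) and -0.31 ± 0.14 with lithium in WT (adjusted p = 0.30). With microglial and endothelial marker scores as covariates the lithium calls ended too (adjusted p = 0.090 over both genotypes and 0.083 in WT). The fluoxetine call ended without HT fluoxetine male 1, WT fluoxetine female 3 or 4, or WT vehicle male 4 (adjusted p at most 0.056).

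The other immunoproteasome subunits, Psmb9 and Psmb10, were not called. Psmb9 had medians of 24.1 with vehicle, 21.3 with fluoxetine and 21.7 with lithium, and its change was -0.20 ± 0.13 with fluoxetine (adjusted p = 0.52) and -0.18 ± 0.13 with lithium (adjusted p = 0.36). Psmb10 changed by -0.08 ± 0.058 and -0.07 ± 0.057. Psmb9 and Tap1 lie head to head on chromosome 17 and overlap by 212 bases on opposite strands. Of the constitutive subunits they replace, Psmb5 and Psmb6 also fell with lithium, by 0.17 ± 0.030 (adjusted p = 6.7e-05) and 0.15 ± 0.033 (adjusted p = 0.0011) on the log2 scale. Psmb7 changed by -0.02 ± 0.015 with lithium, and none of these constitutive genes was called with fluoxetine. The calls of Psmb5 and Psmb6 were not followed without the 22 libraries or with marker scores as covariates.

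H2-K1, a classical MHC class I heavy chain, fell with both drugs. It ran from 412 to 686 (median 486) with vehicle, from 358 to 615 (median 411) with fluoxetine and from 358 to 528 (median 454) with lithium. In HT mice the 9 fluoxetine libraries, at 367 to 435.9, lay just below the 10 vehicle libraries, at 436.6 to 599. H2-K1 was not called with fluoxetine in HT. In WT mice fluoxetine and vehicle overlapped. The change was -0.24 ± 0.061 with fluoxetine (limma, adjusted p = 0.041, 16 of 18 libraries lower) and -0.18 ± 0.061 with lithium (adjusted p = 0.038, 14 of 19 lower). Leaving out 1 library ended the fluoxetine call in 20 of 56 cases and the lithium call in 10 of 56, with adjusted p of at most 0.087. In the other 34 libraries the changes were -0.19 ± 0.091 with fluoxetine (adjusted p = 0.48) and -0.16 ± 0.092 with lithium (adjusted p = 0.33). With the microglial and endothelial scores as covariates the lithium change was -0.08 ± 0.069 (adjusted p = 0.56).

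H2-D1, the second heavy chain, fell with fluoxetine. Its values were 855 to 1123 (median 943) with vehicle, 737 to 1049 (median 873) with fluoxetine and 825 to 1062 (median 914) with lithium. The groups overlapped, and 13 of 18 fluoxetine libraries lay below the vehicle mean of their genotype and sex. The change was -0.16 ± 0.035 with fluoxetine (limma, adjusted p = 0.015), and no omission of 1 library ended that call. In the other 34 libraries it was -0.12 ± 0.040 (adjusted p = 0.30). With lithium it was -0.07 ± 0.034 (adjusted p = 0.13). H2-K1 and H2-D1 are related in sequence, so some reads may have been shared between them, which was not measured here.

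The light chain B2m was not called. It ran from 1461 to 1721 with vehicle, from 1530 to 1655 with fluoxetine and from 1428 to 1677 with lithium, with medians of 1586, 1599 and 1602. Its change was 0.00 ± 0.019 with fluoxetine (adjusted p = 0.97) and 0.00 ± 0.019 with lithium (adjusted p = 0.91). The transporter gene Tap1 had medians of 74.6, 66.9 and 65.9 with vehicle, fluoxetine and lithium. It changed by -0.18 ± 0.079 and -0.14 ± 0.078, with adjusted p of 0.29 and 0.23. Its partner Tap2 changed by -0.03 ± 0.048 with fluoxetine and 0.00 ± 0.047 with lithium.

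In interferon signalling, Stat2 and Irf9 were higher with lithium than with fluoxetine. Stat2 ran from 590 to 766 (median 719) with fluoxetine, from 646 to 801 (median 744) with vehicle and from 717 to 860 (median 785) with lithium. The ranges under the 2 drugs overlapped between 717 and 766. The difference between the drugs was 0.14 ± 0.027 (limma, adjusted p = 0.0011). Against vehicle, Stat2 rose by 0.09 ± 0.027 with lithium over both genotypes (adjusted p = 0.018, 17 of 19 libraries higher) and by 0.13 ± 0.037 in HT mice (adjusted p = 0.020, 9 of 10 higher). Leaving out HT lithium female 5 or HT vehicle female 4 ended the HT call (adjusted p at most 0.056). Neither rise was called without the 22 libraries, at 0.06 ± 0.034 over both genotypes (adjusted p = 0.34) and 0.08 ± 0.049 in HT (adjusted p = 0.44). With the microglial and endothelial scores as covariates the rise over both genotypes was not called (0.08 ± 0.032, adjusted p = 0.14), while that in HT was. With fluoxetine Stat2 changed by -0.05 ± 0.027 (adjusted p = 0.42).

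Irf9, the DNA-binding subunit of ISGF3, had the same order of medians, 312 with fluoxetine, 341 with vehicle and 361 with lithium. Its ranges were 246 to 354, 285 to 385 and 297 to 450.5, and they overlapped. Lithium exceeded fluoxetine by 0.22 ± 0.047 (limma, adjusted p = 0.0027), while neither drug differed from vehicle past the threshold (-0.12 ± 0.047 with fluoxetine, adjusted p = 0.23, and 0.10 ± 0.046 with lithium, adjusted p = 0.13). All 10 HT lithium libraries were above the HT vehicle mean. The difference between the drugs was kept for both genes without the 22 libraries with raised olfactory or striatal markers (0.14 ± 0.033, adjusted p = 0.018, for Stat2 and 0.24 ± 0.064, adjusted p = 0.038, for Irf9). With the microglial and endothelial scores as covariates Stat2 stayed called (0.13 ± 0.032, adjusted p = 0.024) and Irf9 was not (0.16 ± 0.055, adjusted p = 0.11). Some Irf9 exons overlap Rnf31 on the same strand, so reads there may belong to either gene.

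The remaining signalling members were not called. Irf7 ran from 52.3 to 86.8 with vehicle, from 47.3 to 80.7 with fluoxetine and from 46.0 to 88.4 with lithium, with changes of -0.07 ± 0.078 and -0.06 ± 0.077. Usp18 changed by -0.15 ± 0.089 with fluoxetine and -0.10 ± 0.088 with lithium. The 4 RNA sensors and the ligase Trim25 were not called either, and their changes lay between -0.20 and -0.06 with fluoxetine and between -0.11 and 0.06 with lithium. Dhx58, which modulates the other RIG-I-like receptors, changed by -0.20 ± 0.12 with fluoxetine and 0.06 ± 0.12 with lithium.

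Isg15 was the only antiviral effector called. Its values ran from 21.7 to 55.4 (median 34.8) with vehicle, from 17.7 to 38.7 (median 30.1) with fluoxetine and from 17.7 to 35.5 (median 28.4) with lithium. The ranges overlapped, and the highest libraries were vehicle libraries. With lithium it fell by 0.34 ± 0.089 over both genotypes (limma, adjusted p = 0.0063, 16 of 19 libraries lower) and by 0.41 ± 0.13 in WT (adjusted p = 0.046, 9 of 9 lower). The WT call was lost in 14 of 56 omissions of 1 library, up to an adjusted p of 0.11 without WT vehicle female 3. It was kept in 6 of 11 other alternatives. Without the 22 libraries the change was -0.17 ± 0.14 in WT (adjusted p = 0.61) and -0.18 ± 0.100 over both genotypes (adjusted p = 0.29). With the microglial and endothelial scores as covariates it was -0.43 ± 0.16 in WT (adjusted p = 0.12) and -0.34 ± 0.11 over both genotypes (adjusted p = 0.061). With fluoxetine the change was -0.28 ± 0.090 (adjusted p = 0.11), and the difference between the drugs was -0.06 ± 0.090 (adjusted p = 0.78).

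Of the other 12 effectors, none was called with either drug. Ifit3 had medians of 147 with vehicle, 156 with fluoxetine and 142 with lithium, with changes of -0.04 ± 0.077 and -0.05 ± 0.076. Bst2 had medians of 73.7, 72 and 64.5 in the same order, with changes of -0.08 ± 0.079 and -0.13 ± 0.078. Among all 13 effectors the changes ran from -0.28 to 0.12 with fluoxetine (7 lower) and from -0.34 to 0.06 with lithium (10 lower). Of the members with ISRE letters shown above, Isg15 was called lower and Stat2 higher with lithium, and Ifit3, Bst2 and B2m were not called. The Isg15 and Stat2 calls against vehicle ended without the 22 libraries. Ifit1, Rsad2, Ifih1, Ddx58 and Eif2ak2 also held ISRE letters and were not called. The part of these letters in the results was not tested.

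Rnf213, a giant ubiquitin ligase with antimicrobial activity, fell in WT mice with both drugs. The 9 WT vehicle libraries, at 487 to 585 (median 514), lay wholly above the 9 WT fluoxetine libraries, at 375 to 484 (median 429). The 9 WT lithium libraries ran from 370 to 529 (median 470). In WT it fell by 0.31 ± 0.072 with fluoxetine (limma, adjusted p = 0.048) and by 0.25 ± 0.072 with lithium (adjusted p = 0.032). In HT mice the medians were 437 with vehicle, 406 with fluoxetine and 456 with lithium, and the changes were -0.07 ± 0.070 and 0.04 ± 0.067. Over both genotypes the fluoxetine change was -0.19 ± 0.050 (adjusted p = 0.047). The genotype difference in the drug effect was 0.24 ± 0.100 for fluoxetine (adjusted p = 0.86) and 0.29 ± 0.098 for lithium (adjusted p = 0.29). Omitting 1 library ended the fluoxetine calls in 40 of 56 cases in WT and 29 of 56 over both genotypes (adjusted p at most 0.18 and 0.087). The lithium call in WT ended without WT lithium female 1 or 2, WT lithium male 3 or 5, WT vehicle female 2, or WT vehicle male 3 or 4 (adjusted p at most 0.086). Without the 22 libraries the WT changes were -0.26 ± 0.080 with fluoxetine (adjusted p = 0.20) and -0.14 ± 0.080 with lithium (adjusted p = 0.44), and the fluoxetine change over both genotypes was -0.14 ± 0.057 (adjusted p = 0.38). With the microglial and endothelial scores as covariates the WT call with lithium ended (-0.25 ± 0.078, adjusted p = 0.064), as did the fluoxetine call over both genotypes (-0.17 ± 0.046, adjusted p = 0.059).

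Over both genotypes and in WT, Tnfsf10 had the largest change of the 37 members with either drug. In WT mice it ran from 63.3 to 107 (median 85.5) with vehicle, from 33.3 to 91.1 (median 43.7) with fluoxetine and from 39.2 to 70.3 (median 50.9) with lithium. In WT it fell by 0.87 ± 0.20 with fluoxetine (limma, adjusted p = 0.048, 8 of 9 libraries lower) and by 0.71 ± 0.20 with lithium (adjusted p = 0.025, 9 of 9 lower). In HT mice the vehicle libraries already spread from 34.9 to 103 (median 60.8), beside 38.8 to 93.8 with fluoxetine and 25.8 to 68.6 with lithium. The HT changes were -0.06 ± 0.19 (adjusted p = 0.96) and -0.27 ± 0.19 (adjusted p = 0.40). Over both genotypes lithium lowered it by 0.49 ± 0.14 (adjusted p = 0.0094, 17 of 19 lower), a call that held in all 56 omissions but not without the 22 libraries (-0.49 ± 0.17, adjusted p = 0.076) or with the microglial and endothelial scores as covariates (-0.39 ± 0.15, adjusted p = 0.15). Without the 22 libraries the WT changes were -1.03 ± 0.23 with fluoxetine (adjusted p = 0.12) and -0.77 ± 0.23 with lithium (adjusted p = 0.12). The same covariates also ended the WT call with lithium (-0.64 ± 0.22, adjusted p = 0.096). The lithium call in WT ended without WT lithium female 4, WT vehicle male 1 or WT vehicle male 4 (adjusted p at most 0.064), and the fluoxetine call in WT in 35 of 56 omissions (adjusted p at most 0.18). The genotype difference in the fluoxetine effect was 0.81 ± 0.28 (adjusted p = 0.81), and 1.35 ± 0.33 without the 22 libraries with raised regional markers (adjusted p = 0.43). The other members of these groups, Parp9, Parp14, Dtx3l, Sp100 and Lgals3bp, were not called with either drug.

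**Figure D2:**
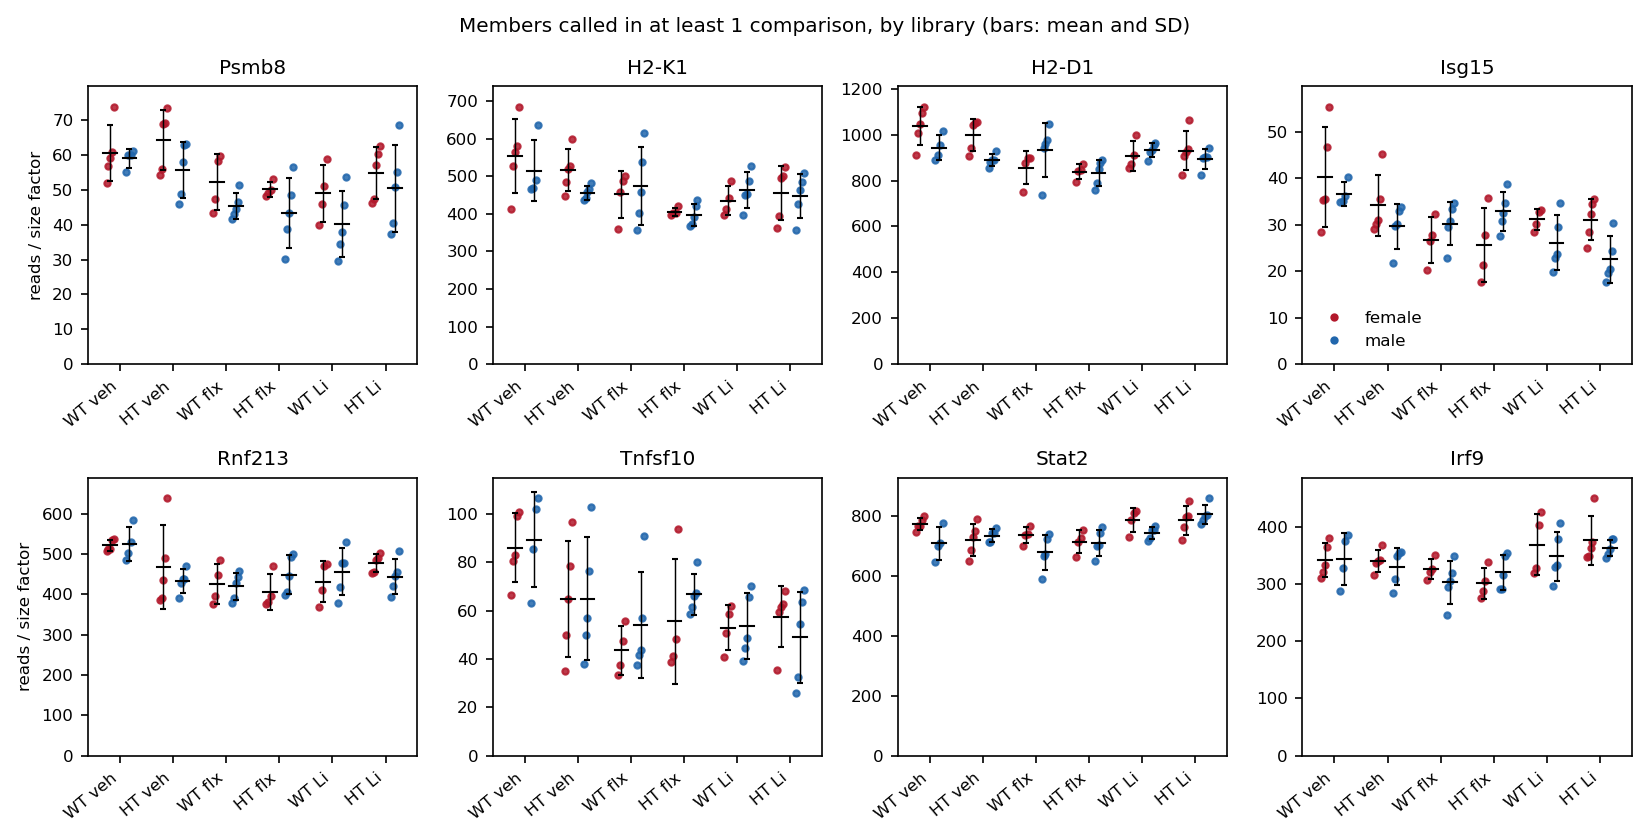
Normalised reads of the 8 members called in at least 1 comparison, in each of the 56 libraries, by genotype and treatment (veh, vehicle; flx, fluoxetine; Li, lithium) and by sex, with the mean and SD of each group of 4 or 5 libraries. WT vehicle libraries of Rnf213 (487 to 585) lie above all WT fluoxetine libraries (375 to 484), and lithium libraries of Stat2 (717 to 860) reach higher than fluoxetine libraries (590 to 766), with overlap.

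No member was called for genotype by limma or edgeR, nor by DESeq2 among the members to which it gave an adjusted p. Under vehicle DESeq2 gave Rnf213 no adjusted p, so it could not call that gene. Under vehicle, 31 of 37 members had a lower mean in HT than in WT (median change -0.07), against 48.4% of all genes. An unadjusted p below 0.05 was reached by 5 members and by 9.93% of all genes, and 0.00562% of all genes were called. The member with the smallest p was Rnf213, with a change of -0.23 ± 0.070 (limma, adjusted p = 0.25). It was called without HT vehicle female 1 (adjusted p = 0.032), the HT vehicle library with the highest value, 639. Over all treatments 22 of 37 were lower in HT (median -0.02, 3 at an unadjusted p below 0.05, as 8.08% of all genes were), where 0.152% of all genes were called (0.0506% higher, 0.101% lower). The difference in drug effect between genotypes called no member by limma or edgeR, and 0% of all genes by limma. DESeq2 called none of the members to which it gave an adjusted p, and it gave none to Rnf213 for lithium. The HT minus WT difference was negative for 13 of 37 members with fluoxetine and 11 of 37 with lithium, against 52.8% and 53.5% of all genes. An unadjusted p below 0.05 was reached by 4 and 5 members, and by 5.44% and 10.9% of all genes.

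Sex gave no call among the members either, by any of these tools (11 of 37 lower in females, 5 at an unadjusted p below 0.05, as 6.25% of all genes were), where 0.197% of all genes were called (0.157% higher, 0.0394% lower). The drug effects differed between sexes for no gene by limma (0% of all genes, with 5 members at an unadjusted p below 0.05 for fluoxetine and 3 for lithium, beside 8.52% and 7.16% of all genes). The member nearest the threshold was Isg20, a 3′ to 5′ exonuclease of viral RNA. In females it ran from 12.5 to 34.2 (median 21.6) with vehicle and from 12.3 to 17.7 (median 14.5) with fluoxetine. In males it ran from 9.0 to 22.6 (median 12) with vehicle and from 13.9 to 33.7 (median 20.5) with fluoxetine. Fluoxetine medians were thus lower than vehicle in females and higher in males, with overlapping ranges in both. With lithium the medians were 16.1 in females and 16.2 in males. The female minus male difference in the fluoxetine effect was -1.18 ± 0.24 (limma, unadjusted p = 7.6e-06, adjusted p = 0.13). DESeq2 called it (adjusted p = 0.040), as did limma without WT fluoxetine male 5 (adjusted p = 0.031) or without WT vehicle male 3 (adjusted p = 0.013). Without the 22 libraries with raised olfactory or striatal markers it was -0.96 ± 0.26 (adjusted p = 0.53).

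**Figure D3:**
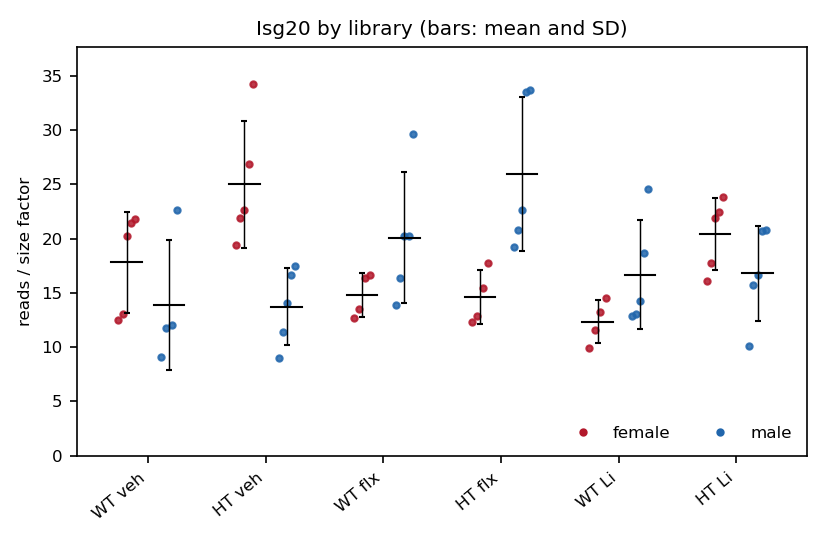
Normalised reads of Isg20 in each of the 56 libraries, by genotype, treatment (veh, vehicle; flx, fluoxetine; Li, lithium) and sex, with the mean and SD of each group of 4 or 5 libraries. Over both genotypes the median is higher in females than in males under vehicle (21.6 against 12) and lower under fluoxetine (14.5 against 20.5).

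The libraries themselves were uneven. For each library the median over the 37 members of the log2 deviation from the member's own median was taken. The 5 highest libraries were WT vehicle female 3 (0.34), HT vehicle female 1 (0.29), HT vehicle female 3 (0.21), WT vehicle female 2 (0.19) and WT vehicle male 3 (0.15). All 5 were vehicle libraries, 4 were female, and all 5 were among the 22 with raised olfactory or striatal markers. WT vehicle female 3 alone held the highest value of 11 of the 37 members. The 8 vehicle libraries with raised markers had a median of 0.17 (-0.03 to 0.34), and the other 11 vehicle libraries had a median of 0.00 (-0.10 to 0.11). With and without raised markers, the medians were -0.04 and -0.05 under fluoxetine and -0.03 and 0.00 under lithium. Vehicle females had a median of 0.12 and vehicle males one of -0.03.

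**Figure D4:**
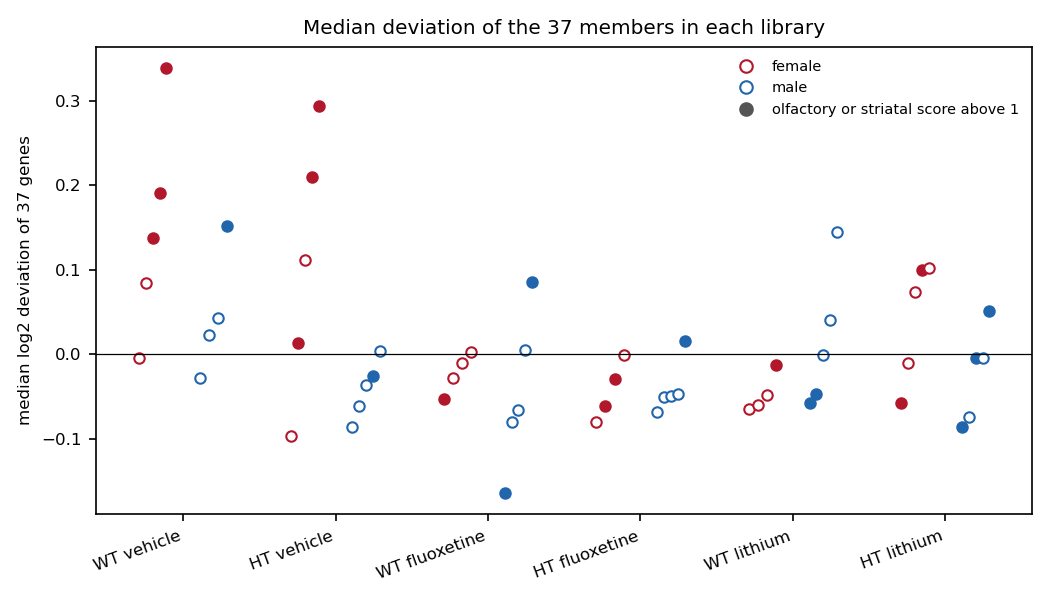
Median over the 37 members of the log2 deviation from each member's own median, 1 point per library, by genotype, treatment and sex. Filled points are the 22 libraries with an olfactory or striatal marker score above 1, and the highest points, up to 0.34, are filled vehicle libraries.

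Without those 22 libraries the members were centred on 0. The median change was 0.00 with fluoxetine and 0.00 with lithium over both genotypes, and -0.05 and -0.02 in WT. No member was then called against vehicle in any drug comparison by limma, while 9 genes in all were called with fluoxetine and 1012 with lithium over both genotypes, from 165 and 2872. These fits rest on 34 libraries, and the values of each called member in them are given above. With the olfactory and striatal scores as covariates and all libraries kept, the counts were 4 with fluoxetine and 5 with lithium over both genotypes, and 2 and 3 in WT.

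Microglial, endothelial and meningeal markers moved with lithium. Over all genes, 49.8% had a lower mean with lithium, with 6.85% called lower and 9.31% higher. With fluoxetine 49.2% of all genes had a lower mean and 0.928% were called. All 13 microglial markers were lower with lithium (median change -0.12, 7 called), and 10 of 13 with fluoxetine (-0.02, none called). Their summed level ran from 11971 to 15507 in HT vehicle, 11398 to 13667 in HT lithium, 12184 to 14709 in WT vehicle and 10287 to 14295 in WT lithium. Of 10 endothelial markers, 3 were called lower with lithium, including the tight junction gene Cldn5, and 1 higher (median -0.08). Their sums were 8472 to 11905 in HT vehicle, 8688 to 10341 in HT lithium, 9499 to 11813 in WT vehicle and 9525 to 11046 in WT lithium. All 5 meningeal markers were lower with lithium (median -0.17), with the collagen genes Col1a1 and Col1a2 and the transporter Slc6a13 called, and 3 of 5 with fluoxetine (-0.03, none called). Their sums were 2158 to 3633 in HT vehicle, 1924 to 2897 in HT lithium, 2292 to 3400 in WT vehicle and 1953 to 3121 in WT lithium. Over the 56 libraries, deviations of the members from the group mean correlated with the meningeal score at r of -0.03 (Irf9) to 0.57 (Oasl2). Among called members the highest was Psmb8 at 0.46. Other scores gave values as large, such as 0.60 for Trim25 with the endothelial and -0.63 for Ifi27 with the cortical score. No fit held the meningeal score. None of these markers was at 0 throughout. Of 10 blood leukocyte markers only Lck and Ccr2 were measured, at a sum of 32.5 to 79.5 over all libraries, and the other 8 were not analysed here. With the microglial and endothelial scores as covariates no member was called with lithium over both genotypes or in WT, while 3 stayed called with fluoxetine (Psmb8, H2-K1 and H2-D1). The part of these markers in the lithium results was not tested.

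Other genes of the same pathways were read from lists that hold none of the 37 members. Calls of these genes, and of the markers above, come from the fit on all 56 libraries. They were not followed without the 22 libraries or with marker scores as covariates, where calls of members ended. Among 60 tested interferon-stimulated genes, 46 were lower with fluoxetine (median -0.07) and 43 with lithium (-0.08), against 49.2% and 49.8% of all genes. Only the guanylate-binding Gbp9 was called with fluoxetine, at -0.31 ± 0.080 (limma, adjusted p = 0.043), where 0.928% of all genes were called. With lithium 5 of 60 fell and 1 rose, where 6.85% of all genes were called lower and 9.31% higher. Among them were the GTPases Gbp4 (-0.61 ± 0.15, adjusted p = 0.0044) and Irgm2 (-0.23 ± 0.058, adjusted p = 0.0037), which fell, and Znfx1, which rose (0.10 ± 0.020, adjusted p = 0.00031). Of 10 measured ligands, receptors and kinases, only the kinase Jak1 was called, higher with lithium by 0.08 ± 0.027 (adjusted p = 0.034).

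Among 15 tested sensors and regulators, Socs1, a feedback inhibitor of cytokine receptors, was called lower with both drugs. Its change was -0.64 ± 0.13 with fluoxetine (limma, adjusted p = 0.012) and -0.41 ± 0.13 with lithium (adjusted p = 0.025). The endosomal RNA receptor Tlr7 was called higher with fluoxetine, at 0.27 ± 0.068 (adjusted p = 0.041). With lithium the adaptor Tmem173 (STING) fell by 0.26 ± 0.063 (adjusted p = 0.0034), while Irf2 and the RNA-editing enzyme Adar rose by 0.13 ± 0.036 and 0.08 ± 0.020.

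Among 23 antigen presentation partners, 13 were lower with lithium (median -0.08) and 12 with fluoxetine (0.00), against 49.8% and 49.2% of all genes. With lithium the chaperone gene Calr rose by 0.15 ± 0.038 (adjusted p = 0.0044), and Canx and Pdia3 were also called higher. Pdia3 was the only partner called with fluoxetine (0.10 ± 0.026, limma, adjusted p = 0.049), where 0.928% of all genes were called. The proteasome activator subunit Psme1 fell with lithium by 0.16 ± 0.037 (adjusted p = 0.0017). The class I gene H2-Q4 fell by 0.27 ± 0.070 (adjusted p = 0.0048), with the same doubt about shared reads as for H2-K1. Psme2 was the third partner called lower, so 3 of 23 partners rose and 3 fell with lithium, beside the same shares of all genes (9.31% and 6.85%).

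Across the 56 libraries the members varied together only in part. The median correlation of deviations from the group mean was 0.16 over 666 pairs of members, with 11 pairs above 0.5 and 121 below 0. The highest pair was H2-K1 with H2-D1 (Pearson's r = 0.72, Spearman's rho = 0.65, and r = 0.67 without the 2 farthest libraries), which may share reads. Ifi27 with Lgals3bp (r = 0.60) and Trim25 with Tnfsf10 (r = 0.59) came next. Stat2 had a mean r of -0.05 with the other members. These correlations are descriptions, since the libraries share depth and tissue content, and no p-value is given.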

How the data were processed

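The 56 libraries, made with a TruSeq Stranded mRNA kit according to the extract protocol, fall into 12 groups by title (genotype, drug, sex). Per the submitters' processing notes, which assign no roles, the tools were Salmon 0.11.2, R 3.6.0 and DESeq2 1.19.11 and the build GRCm38, and whether counting used strand is not given in the sources used here. Each deposited value is a signal made by the authors as reads over 1 size factor per library (0.818 to 1.23). Whole reads came back for 100% of values at a tolerance of 0.01, a check that could not be applied in 3 libraries. Symbols matched 18077 of 18088 IDs. Coordinates are GENCODE vM21 on GRCm38, and promoter sequences are from RefSeq.

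Changes were tested with limma 3.58.1 (R 4.3.3, trend and robust) on log2(value + 1), with 12 group means, sexes weighted equally, and 17778 genes past the filter (310 were not tested). The script was tested on simulated data. Alternatives were edgeR 4.0.16 and DESeq2 1.42.0 on recovered reads, TMM rescaling, pseudocounts, filters, a replicate block, omission of each library, and 3 chosen after seeing the data (without 22 libraries, and marker scores as covariates). The 37 members and the lists were chosen with earlier results of these data known. Values are given for every called member and for Psmb8, Psmb9, Isg15, Ifit3, Irf7, Stat2, Irf9, B2m, H2-K1, H2-D1, Tap1, Bst2, Rnf213 and Tnfsf10. At most 4 other genes per list were named for a comparison, those called with the smallest p. Isg20 fell outside this rule and was described after its values were seen.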

Additional observations from a re-analysis of the deposited data

Results flagged for a closer look

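In 168 groups of 4 or 5 libraries (14 genes in 12 groups), 10 held a library set apart from the rest of its group by a gap that, over the group's range, was above Dixon's critical value. Chance gives about 1 in 20. Above the others of their group were H2-K1 in WT vehicle male 2 (637, others 466 to 490), Ifit3 in WT lithium male 2 (189, others 128 to 142) and WT vehicle male 3 (214, others 142 to 144), Irf7 in WT vehicle female 3 (84.6, others 62.9 to 68.5), Irf9 in HT lithium female 3 (450.5, others 347 to 374) and Tap1 in HT fluoxetine male 1 (78.2, others 63.7 to 66.2). Below the others were Bst2 in WT fluoxetine male 5 (53.8, others 75.2 to 81.9), H2-D1 in WT fluoxetine female 3 (748, others 875 to 900), Ifit3 in HT vehicle male 4 (95.1, others 142 to 159) and Tnfsf10 in HT lithium female 4 (35.5, others 59.4 to 68.0).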

How the results depend on the processing

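No result reversed under any setting. Members called against vehicle fell to 0 in all 5 comparisons of a drug with vehicle that had calls (WT and HT with lithium, WT with fluoxetine, and both drugs over both genotypes) without the 22 libraries with raised regional markers. With microglial and endothelial scores as covariates they fell to 0 for lithium in WT and over both genotypes and to 1 for lithium against fluoxetine. With TMM rescaling, or only the compared groups in the fit, fluoxetine in WT had 1. With only the compared groups, fluoxetine in HT had 1 and fluoxetine over both genotypes 2. DESeq2 called 1 member for fluoxetine by sex. Over all genes DESeq2 called 122 for fluoxetine in WT (26 by limma) and 302 over both genotypes (165), and edgeR put 56.2% of lithium calls in WT as higher (67.1% by limma).

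Leaving out 1 library gave 0 to 2 members for fluoxetine in WT, 1 to 5 for lithium in WT, 0 to 1 for lithium in HT, 0 to 1 for genotype under vehicle, 1 to 5 for fluoxetine over both genotypes, 4 to 5 for lithium over both, 2 for lithium against fluoxetine and 0 to 1 for fluoxetine by sex. Fluoxetine in WT had 1 without HT lithium female 1 or 4, HT lithium male 1 or 4, WT vehicle female 4 or WT vehicle male 2 or 3. It had 0 without WT vehicle male 1 or 4, WT vehicle female 1, 2, 3 or 5, WT lithium male 1, 3 or 4, WT lithium female 1 or 3, any of WT fluoxetine male 2 to 5, WT fluoxetine female 2, 3 or 4, any HT vehicle male, HT vehicle female 2, HT lithium male 2, HT lithium female 2 or 5, any HT fluoxetine male, or HT fluoxetine female 2 or 4. Fluoxetine over both genotypes had 1 without WT vehicle male 4 or HT fluoxetine male 1, and 2 without WT vehicle male 1, WT vehicle female 2, 3 or 5, WT fluoxetine male 3 or 5, WT fluoxetine female 2, 3 or 4, HT vehicle male 2, HT vehicle female 1, 2 or 3, or HT fluoxetine female 2 or 4. Lithium in WT had 1 without WT vehicle male 4, and 2 without WT lithium female 1, 2 or 4, WT lithium male 3 or 5, WT vehicle female 2, or WT vehicle male 1 or 3.

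Deviations of libraries with the same replicate number in their titles had mean correlations of -0.01 to 0.02, which showed no pairing by these numbers. In WT fluoxetine female and WT lithium female some of these numbers differ from those in the library names. Pairing by library name was not checked. With the replicate block, fluoxetine by sex had 1 member (Isg20, adjusted p = 0.011), Isg15 with lithium in WT was not called (adjusted p = 0.051), and fluoxetine over both genotypes had 5.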
